A study of Mus musculus with 20 samples.

Results

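Mouse ovaries were profiled by RNA-seq in 20 libraries, and 10 genes of the MHC class I peptide loading pathway were followed through them. The members were taken by name as Psmb8, Psmb9, Psmb10, Tap1, Tap2, Tapbp, B2m, H2-K1, H2-D1 and Nlrc5, and all 10 were among the 17651 genes of the deposited table. This choice was made with earlier results of these data known, so their counts are a description. The 20 libraries formed 5 groups of 4. They came from young mice of 7 to 8 weeks, adult mice of 27 to 28 weeks, adult mice of the same age given HEP14, aged mice of 73 to 74 weeks given vehicle, and aged mice of the same age given HEP14. All groups carried the genotype label WT, and the strain, the dose and the length of treatment were not given in the sources used here. HEP14, a small molecule, is an activator of protein kinase C, and the study asked whether it restores ovarian function in aged mice. Whole ovaries hold many cell types, and nothing in the labels said whether each library came from 1 animal, so the p-values below measure the spread between libraries, which may be partly technical.

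Cells display fragments of their own proteins on MHC class I molecules so that CD8 T cells can inspect them. Proteasomes cut the proteins, the TAP transporter carries the peptides into the endoplasmic reticulum, and a loading complex fits them onto a heavy chain paired with beta-2 microglobulin. Interferon gamma, a cytokine of T cells and NK cells, raises most of these genes together, in part through the transactivator NLRC5, which acts on class I promoters with the RFX, CREB/ATF and NF-Y factors. Leukocytes carry more of this machinery than most other cells, and the ovary holds resident and infiltrating leukocytes.

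The members lie on 3 chromosomes (GENCODE M21 annotation of GRCm38; the build used by the authors was not given in the sources used here). Of the 10 genes, 7 lie on chromosome 17, in or beside the MHC region. Tap1 (chr17:34187553-34197225, plus strand) and Psmb9 (chr17:34181987-34187764, minus strand) point away from each other and share 212 exonic bases on opposite strands. Psmb8 (chr17:34197721-34201454) and Tap2 (chr17:34203527-34216321) follow Tap1 on the plus strand. Tapbp (chr17:33915899-33929292, plus), H2-K1 (chr17:33996017-34000347, minus) and H2-D1 (chr17:35262730-35267499, plus) lie on either side of that block. Psmb10 (chr8:105935735-105938444, minus) and Nlrc5 (chr8:94434356-94527272, plus) lie on chromosome 8, and B2m (chr2:122147686-122153083, plus) on chromosome 2.

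Promoter windows from 250 bases before to 50 bases after the annotated start (RefSeq, GRCm38.p6) were found for 8 members. They are shown for 5 members whose scores are set against each other below, the heavy chains H2-K1 and H2-D1, their light chain B2m, the transporter gene Tap1 and the loading factor Tapbp. Capitals mark every match, on either strand, to 5 motifs: the interferon-stimulated response element (GAAA, any 2 bases, GAAA), the gamma-activated site (TTC, any 3 bases, GAA), TGACG (core of the cyclic-AMP response element), CCAAT (NF-Y box) and a kappa B motif (the first run of capitals in the H2-K1 and H2-D1 sequences).
H2-K1, chr17:34000298-34000597, minus strand: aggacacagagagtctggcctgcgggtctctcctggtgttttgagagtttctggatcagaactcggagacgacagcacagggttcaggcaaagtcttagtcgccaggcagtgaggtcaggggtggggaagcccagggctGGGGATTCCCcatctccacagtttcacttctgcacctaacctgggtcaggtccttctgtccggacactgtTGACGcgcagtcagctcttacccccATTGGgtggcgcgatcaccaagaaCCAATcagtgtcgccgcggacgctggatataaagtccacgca
H2-D1, chr17:35262844-35263143, plus strand: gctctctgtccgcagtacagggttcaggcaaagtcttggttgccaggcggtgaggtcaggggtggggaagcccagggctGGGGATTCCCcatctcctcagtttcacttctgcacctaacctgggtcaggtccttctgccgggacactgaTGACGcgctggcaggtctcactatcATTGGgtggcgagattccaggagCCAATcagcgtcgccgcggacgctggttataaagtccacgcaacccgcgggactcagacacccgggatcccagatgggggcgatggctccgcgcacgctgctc
B2m, chr2:122147437-122147736, plus strand: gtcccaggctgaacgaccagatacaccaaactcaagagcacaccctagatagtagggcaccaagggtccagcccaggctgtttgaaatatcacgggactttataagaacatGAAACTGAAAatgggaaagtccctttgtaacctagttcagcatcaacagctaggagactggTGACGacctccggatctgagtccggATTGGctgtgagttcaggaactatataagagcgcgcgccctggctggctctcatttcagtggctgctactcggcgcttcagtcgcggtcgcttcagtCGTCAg
Tap1, chr17:34187306-34187605, plus strand: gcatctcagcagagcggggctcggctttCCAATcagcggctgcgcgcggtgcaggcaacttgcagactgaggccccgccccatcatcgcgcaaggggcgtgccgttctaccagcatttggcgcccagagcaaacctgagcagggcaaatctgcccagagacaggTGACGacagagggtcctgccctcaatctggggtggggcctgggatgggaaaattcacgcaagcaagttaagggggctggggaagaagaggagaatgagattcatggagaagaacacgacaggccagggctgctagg
Tapbp, chr17:33919228-33919527, plus strand: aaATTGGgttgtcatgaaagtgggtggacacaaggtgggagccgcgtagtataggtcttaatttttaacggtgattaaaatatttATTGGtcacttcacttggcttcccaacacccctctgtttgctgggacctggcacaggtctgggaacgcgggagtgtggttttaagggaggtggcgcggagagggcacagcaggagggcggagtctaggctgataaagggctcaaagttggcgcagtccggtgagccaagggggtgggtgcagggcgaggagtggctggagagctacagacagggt

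The H2-K1 and H2-D1 windows were identical at 211 of 239 aligned bases (88.3%), and both held the kappa B letters, the TGACG core and a pair of CCAAT boxes. The B2m window held 2 TGACG cores, 1 CCAAT box and the only match, among the 8 members with a window, to the interferon-stimulated response element letters. Sites that depart from those letters were not counted, so the other windows cannot be said to lack such an element. The Tap1 window overlapped that of its neighbour Psmb9 by 275 bases, and held 1 TGACG core and 1 CCAAT box. The Tapbp window held 2 CCAAT boxes and none of the other motifs. Across 32817 windows of this length, CCAAT occurred in 37.4%, TGACG in 20.8%, the gamma-activated site in 8.29%, the interferon-stimulated response element in 3.43% and the kappa B letters in 0.107%. Among the 8 members with a window, CCAAT was found in 6, TGACG in 5 and the gamma-activated site in 1, Psmb8. The CCAAT and TGACG matches of Tap1 and Psmb9 are the same sites read on opposite strands, and the H2-K1 and H2-D1 windows are alike. These counts are therefore not of independent promoters. The kappa B motif was added after its letters were seen in the H2-K1 and H2-D1 windows, and 5 of the 35 windows that held it belonged to 4 H2 genes. A match describes letters only and shows neither binding nor a cause.

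All values below are scores. In the deposited table each gene had been scaled across the 20 libraries to a mean of 0 and an SD of 1, so a difference of 1 is 1 SD of that gene. Neither expression levels nor fold changes nor read depth can be recovered from it, and differences of different genes are not comparable as amounts of RNA. The aged libraries stood apart from the other 16. Their scores over all genes spread more widely, with SDs of 1.29 to 1.87 against 0.542 to 1.01, and their medians were lower, between -0.624 and -0.279 against -0.159 to 0.018. A lowest value tied between libraries, as undetected genes would give, was held by 1956 to 3697 genes in each aged library and by 686 to 1218 genes in each of the others, and no member had such a tie. Oocyte markers were lower in aged than in young ovaries for 8 of 8 genes, against 41.3% of all genes.

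**Figure D1:**
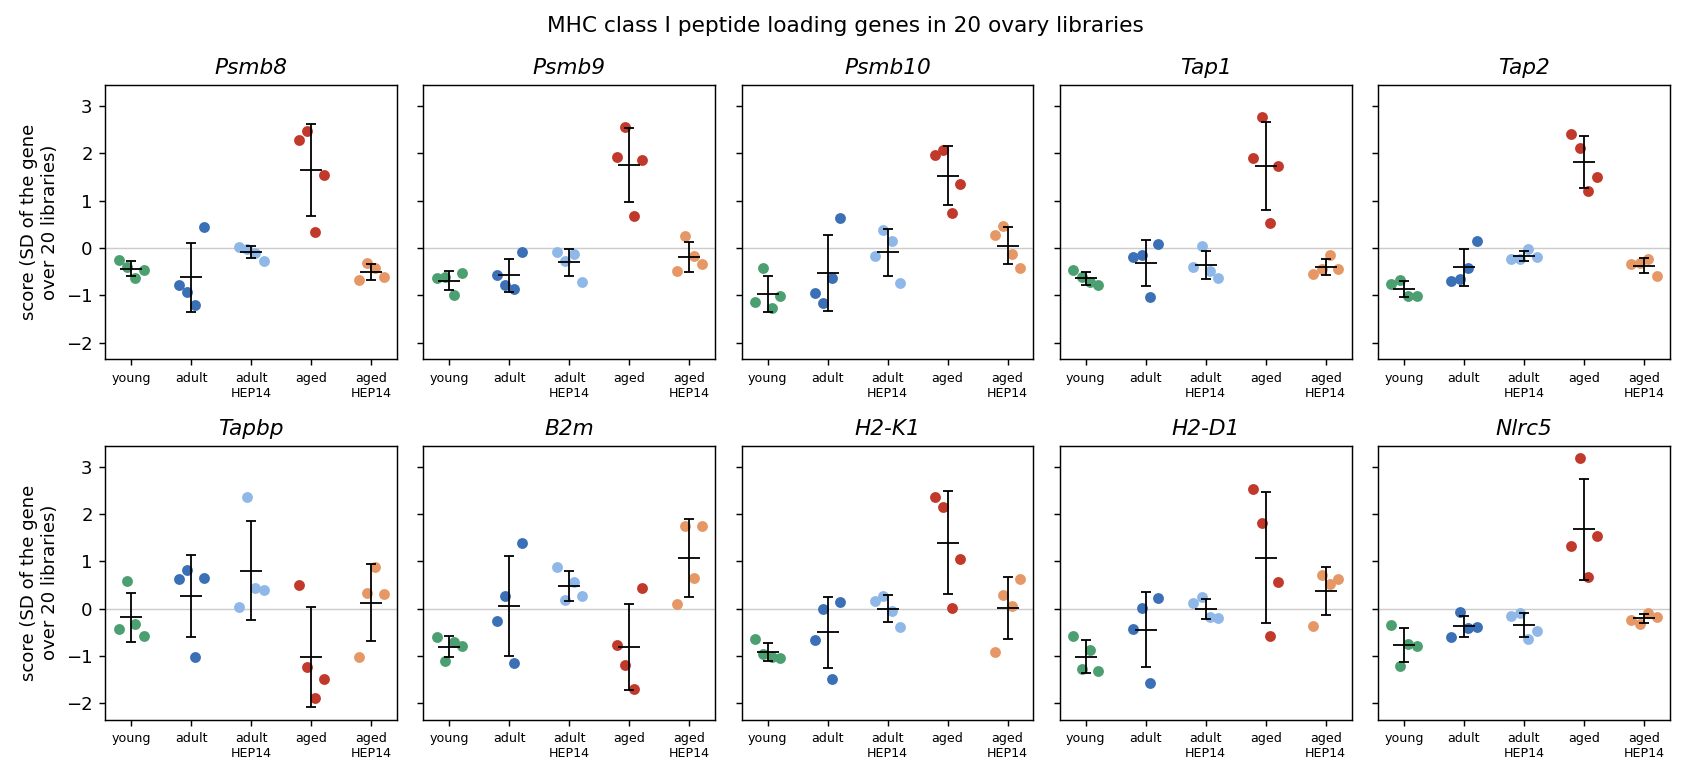
Scores of the 10 members (y axis, SD of each gene across the 20 libraries) in the 5 groups (x axis), with 1 point per library and a bar at the mean of 4. The aged group has the highest mean for 8 members, while the mean of Tapbp is lowest there and that of B2m is level with the young.

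In ovaries of aged mice most of the class I loading genes were high. In the comparison of aged with young ovaries, 8 of the 10 members were higher and none was lower at an adjusted p below 0.05 (limma over all genes, Benjamini-Hochberg). This comparison called 74.3% of all genes, 33% higher and 41.3% lower, so a call in itself was common. The median difference was 2.34 over the members and -0.41 over all genes. The groups did not overlap for 7 members, all higher in aged, which was true of 24.7% of all genes. In the comparison of aged with adult ovaries 8 members were again higher and none lower, against 66.8% of all genes called, 31.1% higher and 35.7% lower, and the 4 aged libraries are shared by both comparisons. There 5 members did not overlap, all higher in aged, against 21.8% of all genes, and the median difference was 2.05 over the members and -0.26 over all genes. With the library medians set equal the median over all genes in aged against young moved to 0.01 and that over the members to 2.77, and the same members were called. Without aged libraries 1 and 2, which held the most genes at their lowest value, 7 members were higher and 1 lower than in young, and 6 were higher and 1 lower than in adult ovaries. The share of all genes called in that refit is not set beside these counts, so they show only which member calls held.

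Aged mice that had received HEP14 had lower scores for most of the same genes than aged mice given vehicle. Of the 10 members, 7 were lower and 1, B2m, was higher. This comparison called 62.5% of all genes, 29.3% lower and 33.2% higher. The median difference was -1.68 over the members and 0.31 over all genes. For 6 members every library of the HEP14 group lay below every vehicle library, as for 20.5% of all genes. The aged vehicle libraries serve in this comparison too, so it shares them with the age comparisons. With the library medians set equal the medians were -2.05 over the members and -0.06 over all genes, with the same calls among the members. Without aged libraries 1 and 2 there were 5 members lower and 2 higher, again given without the share of all genes in that refit.

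**Figure D2:**
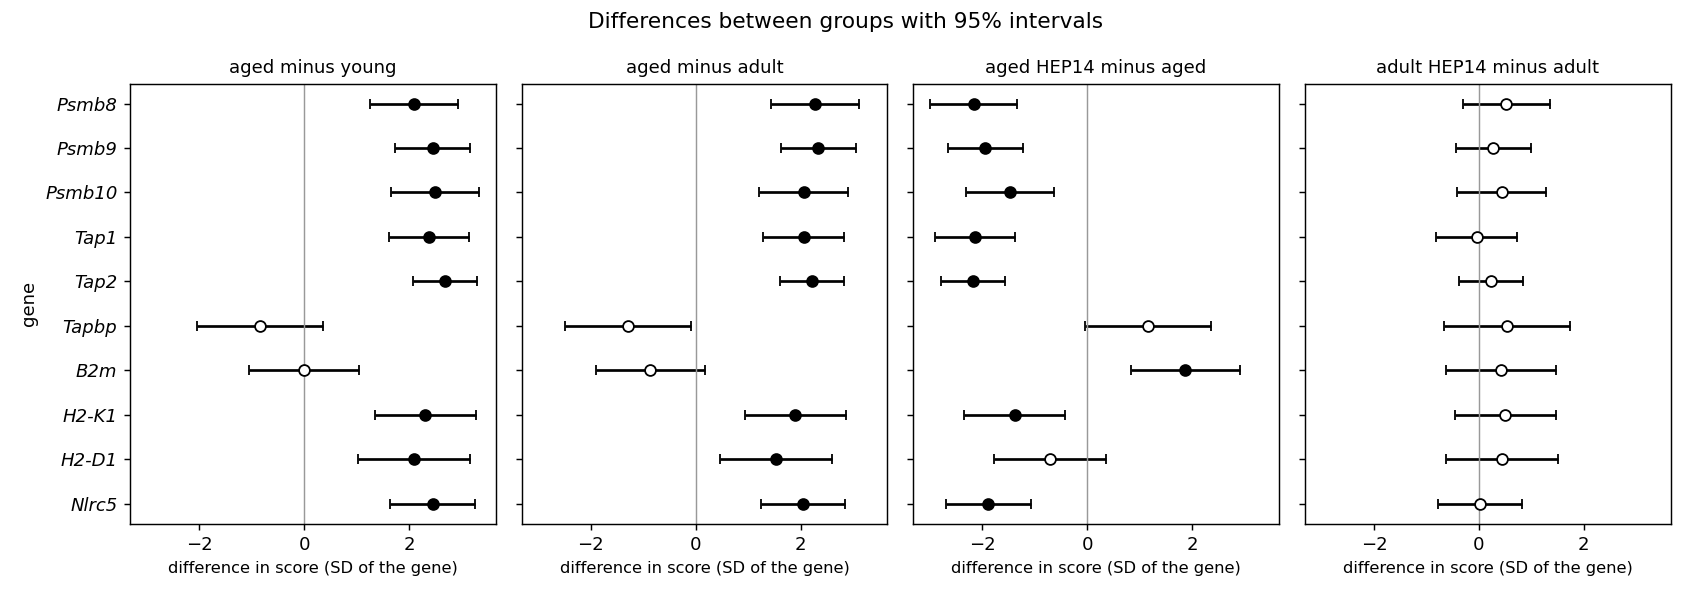
Score differences (x axis, SD of each gene) with 95% confidence intervals for the 10 members in 4 comparisons, from limma over all 20 libraries, with filled points for members called at an adjusted p below 0.05. The intervals of 8 members lie above 0 for aged minus young, B2m alone is filled above 0 for HEP14 in aged mice, and all 10 intervals include 0 for HEP14 in adults.

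The immunoproteasome subunits Psmb8, Psmb9 and Psmb10 replace the standard catalytic subunits and favour cuts that suit class I molecules. Psmb8 scored -0.26, -0.39, -0.64 and -0.46 in the young libraries and 2.29, 2.47, 0.33 and 1.54 in the aged ones. Its HEP14-treated aged libraries scored -0.68, -0.31, -0.43 and -0.61. The aged libraries all lay above both other groups, with the third the nearest to them. Psmb8 was higher in aged than in young by 2.10 ± 0.40 (SE; adjusted p = 0.000111) and lower with HEP14 than with vehicle in aged mice, with a difference of -2.17 ± 0.40 (adjusted p = 0.000117).

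Psmb9 scored -0.63, -0.61, -0.99 and -0.53 in young, and 1.92, 2.57, 0.67 and 1.87 in aged ovaries. With HEP14 the aged libraries scored -0.49, 0.25, -0.17 and -0.33. No aged library overlapped either group, and the difference from young was 2.45 ± 0.34 (adjusted p = 3.52e-06) and that of HEP14 from vehicle -1.94 ± 0.34 (adjusted p = 7.27e-05). Psmb10 scored -1.14, -0.41, -1.28 and -1.02 in young, and 1.96, 2.08, 0.73 and 1.35 in aged ovaries. With HEP14 it scored 0.28, 0.47, -0.13 and -0.41, below all aged vehicle libraries, with its lowest library level with the highest young one. The age difference was 2.49 ± 0.40 (adjusted p = 1.87e-05). The HEP14 difference of Psmb10 was -1.48 ± 0.40 (adjusted p = 0.00365), and was no longer called with 1 precision weight per group (adjusted p = 0.0598) or without aged libraries 1 and 2 (-0.99, adjusted p = 0.0728).

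TAP1 and TAP2 form the channel that pumps peptides into the endoplasmic reticulum. Tap1 scored -0.46, -0.62, -0.71 and -0.79 in young, and 1.90, 2.78, 0.53 and 1.73 in aged ovaries. In HEP14-treated aged ovaries it scored -0.56, -0.44, -0.16 and -0.45. It was higher in aged than in young by 2.38 ± 0.37 (adjusted p = 1.15e-05) and lower with HEP14, with a difference of -2.14 ± 0.37 (adjusted p = 5.85e-05), and the aged libraries overlapped neither group. Tap2 scored -0.76, -0.67, -1.02 and -1.01 in young, and 2.41, 2.12, 1.2 and 1.51 in aged ovaries, the narrowest spread among the members in that group. With HEP14 it scored -0.34, -0.33, -0.23 and -0.58. Its age difference of 2.68 ± 0.29 (adjusted p = 2.65e-07) and its HEP14 difference of -2.18 ± 0.29 (adjusted p = 4.9e-06) had the smallest adjusted p of the members in either comparison. Without strand information in the sources used here, reads from Tap1 and Psmb9 in their shared 212 bases, and from Tap2, Psmb8, Tapbp and Nlrc5 and their antisense neighbours, cannot be told apart.

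Tapbp encodes tapasin, which bridges TAP to the empty class I molecule and edits its peptide. It scored -0.42, 0.58, -0.32 and -0.57 in young ovaries. In aged ovaries it scored 0.50, -1.23, -1.90 and -1.49, so 3 of the 4 libraries lay below every young one and library 1 did not. With HEP14 the aged libraries scored -1.01, 0.33, 0.89 and 0.32. The difference of aged from young was -0.85 (95% interval -2.05 to 0.35; adjusted p = 0.189) and that of HEP14 from vehicle 1.16 (-0.04 to 2.36; adjusted p = 0.0848), neither of which passed. Tapbp was called without aged library 1, lower in aged than in young (-1.36, adjusted p = 0.0345) and higher with HEP14 (1.67, adjusted p = 0.0141), and also called higher with HEP14 without HEP14-treated aged library 1 (1.54, adjusted p = 0.0331). Of the exonic bases of Tapbp 29.0% are shared with Zbtb22 or an antisense gene.

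H2-K1 and H2-D1 encode the classical heavy chains that hold the peptide. H2-K1 scored -0.64, -0.96, -1.01 and -1.04 in young, and 2.36, 2.16, 0.01 and 1.06 in aged ovaries. With HEP14 it scored -0.91, 0.29, 0.05 and 0.63, overlapping the lowest aged library. It was higher in aged than in young by 2.31 ± 0.46 (adjusted p = 0.00018) and lower with HEP14, with a difference of -1.38 ± 0.46 (adjusted p = 0.0141). The HEP14 call was lost without aged library 1 (adjusted p = 0.055), aged library 2 (0.0507) or HEP14-treated aged library 1 (0.062), and with both aged libraries 1 and 2 left out the difference was -0.52 (adjusted p = 0.347). It was also lost in a fit of those 2 groups alone (adjusted p = 0.0805) and with 1 precision weight per group (0.0729).

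H2-D1 scored -0.58, -1.28, -0.87 and -1.31 in young, and 2.53, 1.82, -0.59 and 0.56 in aged ovaries. Aged library 3 lay level with the highest young library, so the groups overlapped. The age difference of H2-D1 was 2.09 ± 0.51 (adjusted p = 0.00118), and without aged libraries 1 and 2 it was 0.999 (adjusted p = 0.0588). With HEP14 it scored -0.37, 0.72, 0.52 and 0.63, and the difference from vehicle of -0.71 (-1.78 to 0.36; adjusted p = 0.237) did not pass. That difference was -1.26 (adjusted p = 0.022) without aged library 3, and 0.39 with aged libraries 1 and 2 left out, so 1 to 2 libraries set its size and its sign. Heavy chain genes share stretches of sequence: 9.63% of the 50-base words of H2-K1 transcripts and 12.8% of those of H2-D1 occur in other genes, and the counting could have split such reads.

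B2m encodes beta-2 microglobulin, the light chain that classical class I heavy chains need. It scored -0.60, -1.11, -0.71 and -0.79 in young, and -0.77, -1.19, -1.70 and 0.44 in aged ovaries. The groups overlapped, with a difference of -0.00 (-1.05 to 1.04; adjusted p = 1). With HEP14 the aged libraries scored 0.11, 1.76, 0.64 and 1.76, higher by 1.87 ± 0.50 (adjusted p = 0.0031) than with vehicle, although aged vehicle library 4 lay above the lowest of them. Of the 10 members B2m alone was called higher with HEP14 in aged mice, and the call held in all 15 alternative fits of that comparison, with differences of 1.51 to 2.29. No exonic base or 50-base word of B2m was shared with another gene.

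Nlrc5, the class I transactivator, scored -0.33, -1.20, -0.75 and -0.79 in young, and 1.32, 3.19, 0.67 and 1.54 in aged ovaries. With HEP14 it scored -0.25, -0.31, -0.09 and -0.17. The aged libraries lay above both groups, with a difference of 2.45 ± 0.39 from young (adjusted p = 1.35e-05). HEP14-treated differed from vehicle-treated aged ovaries by -1.89 ± 0.39 (adjusted p = 0.000311). Aged library 2 had the highest score of any member in any library here.

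Against adult ovaries the aged libraries gave the same called members. Tap2 differed by 2.21 (adjusted p = 2.6e-06), Psmb9 by 2.34 (8.02e-06), Psmb8 by 2.27 (5.66e-05) and Tap1 by 2.06 (6.99e-05). Nlrc5 differed by 2.05 (adjusted p = 0.000116), Psmb10 by 2.06 (0.000177) and H2-K1 by 1.90 (0.00132). The H2-D1 difference of 1.52 (adjusted p = 0.0133) was lost without adult library 3 (0.0624) or aged library 1 (0.0632) and in a fit of the compared groups only (0.102) or with group weights (0.0565), and without aged libraries 1 and 2 both H2-D1 (0.43, adjusted p = 0.425) and H2-K1 (1.04, 0.0579) were lost. Tapbp gave -1.30 (adjusted p = 0.0526) and B2m -0.86 (adjusted p = 0.134). Either was called lower without adult library 3, with adjusted p of 0.0152 for Tapbp and 0.0342 for B2m. Tapbp was also called without aged library 1 (0.008), and B2m without aged library 4 (0.0294).

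Between young and adult mice, and between adult mice with and without HEP14, no member was called. In adult against young, 0 of 10 members passed in limma, while 9.92% of all genes passed. At an unadjusted p below 0.05 there were 0 members and 4873 of 17651 genes. The differences ran from -0.18 for Psmb8 to 0.86 for B2m. B2m scored -0.27, 0.26, -1.15 and 1.39 in adults, the widest spread of any member there, and the adult and young groups overlapped for all 10 members, against 28.3% of all genes that did not. The adult scores of the immunoproteasome genes ran from -1.21 to 0.45 for Psmb8, from -0.86 to -0.09 for Psmb9 and from -1.17 to 0.64 for Psmb10. They ran from -1.03 to 0.08 for Tap1, from -0.71 to 0.15 for Tap2 and from -1.02 to 0.81 for Tapbp, and from -1.49 to 0.15 for H2-K1, from -1.57 to 0.22 for H2-D1 and from -0.60 to -0.06 for Nlrc5. Library 3 was the lowest of the 4 adult libraries for Psmb8, Psmb9, Tap1, Tapbp, B2m, H2-K1 and H2-D1, and library 4 the highest for all members but Tapbp and Nlrc5. In adult mice given HEP14 against adults without it, 0 of 10 members passed in limma, against 0.00567% of all genes, or 1 gene. At an unadjusted p below 0.05 there were 0 members and 345 of 17651 genes. With HEP14 the adult scores of Psmb8 lay between -0.27 and 0.02, of Tap2 between -0.24 and -0.01 and of B2m between 0.20 and 0.88, all within the range of the adults without it. Those of Psmb10 and Tap1 did so too. Tapbp reached 2.36, H2-K1 0.27, H2-D1 0.25 and Psmb9 -0.08, above the highest adult without HEP14, and Nlrc5 reached -0.63, below the lowest. Differences there ran from -0.04 for Tap1 to 0.54 for Tapbp, with intervals such as -0.31 to 1.36 for Psmb8 and -0.63 to 1.46 for B2m.

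The HEP14 differences at the ages of the adult and aged mice were then set against each other. This uses the same aged vehicle libraries as the comparisons above, so it is not independent of the HEP14 result in aged mice. For Tap1 the result was -2.09, against -2.14 for HEP14 in aged mice alone, and for Psmb8 -2.69 against -2.17. A test of the difference between the HEP14 effects in aged and in adult mice called 7 members lower and none higher, against 47.3% of all genes, 22.4% lower and 24.9% higher. Over all genes 52.6% of the calls were higher, and 40.6% with the library medians set equal, which changed no member's call. The 7 were Psmb8 (-2.69 ± 0.57, adjusted p = 0.000973), Tap2 (-2.42 ± 0.41, 0.0003), Psmb9 (-2.22 ± 0.49, 0.00126), Tap1 (-2.09 ± 0.52, 0.00316), Nlrc5 (-1.91 ± 0.55, 0.00766), Psmb10 (-1.91 ± 0.57, 0.0103) and H2-K1 (-1.88 ± 0.65, 0.0236). H2-K1 was lost without adult library 3 (adjusted p = 0.0573) or HEP14-treated aged library 1 (0.0571), and without aged libraries 1 and 2 (-1.02, 0.164), where Psmb10 was lost too (0.0544). B2m (1.45, -0.02 to 2.93; adjusted p = 0.0969), H2-D1 (-1.14, -2.66 to 0.37; adjusted p = 0.2) and Tapbp (0.62, -1.08 to 2.32; adjusted p = 0.547) did not pass. B2m was called higher without adult library 3 (1.86, adjusted p = 0.0337), aged library 4 (1.87, 0.0284) or HEP14-treated aged library 1 (1.77, 0.0498), and H2-D1 was called lower without aged library 3 (-1.70, 0.0298).

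Aged ovaries after HEP14 were also set against young ones. Only B2m was called (1.87 ± 0.50, adjusted p = 0.0158), among 15.9% of all genes called, 5.38% higher, and it was lost without HEP14-treated aged library 2 (0.0589) or 4 (0.0629). For 6 members, Psmb9, Psmb10, Tap2, B2m, H2-D1 and Nlrc5, every HEP14-treated aged library lay above every young one, as for 16.5% of all genes. H2-D1 differed by 1.39 (0.32 to 2.46; adjusted p = 0.0701) and Psmb10 by 1.02 (0.17 to 1.86; adjusted p = 0.0907), while Psmb8 differed by -0.07 (-0.90 to 0.76; adjusted p = 0.935). A fit of those groups only called Psmb10 (adjusted p = 0.0248), Tap2 (0.0414) and H2-D1 (0.0122) as well, and 1 precision weight per group called Psmb10 (0.0198), H2-K1 (0.0281) and H2-D1 (0.00384).

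The aged group had the highest mean score for 8 members, and the young group the lowest for 7. Psmb8 was lowest in adults and Tapbp in the aged. B2m was lowest in the aged by only 0.003, level with the young. Tapbp was highest in adults given HEP14, where 1 library reached 2.36 and the other 3 lay between 0.03 and 0.45, and B2m was highest in aged mice given HEP14. The step from the aged group to the next was larger than the larger SD of those groups for 7 members and within it for H2-D1. No step between neighbouring groups exceeded the larger SD for Tapbp, B2m or H2-D1, and for Psmb9, Psmb10 and H2-K1 only the step up to the aged group did. Neither the places nor the steps were counted over all genes. The aged libraries had the widest scores over all genes, so these counts describe the members only.

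**Figure D3:**
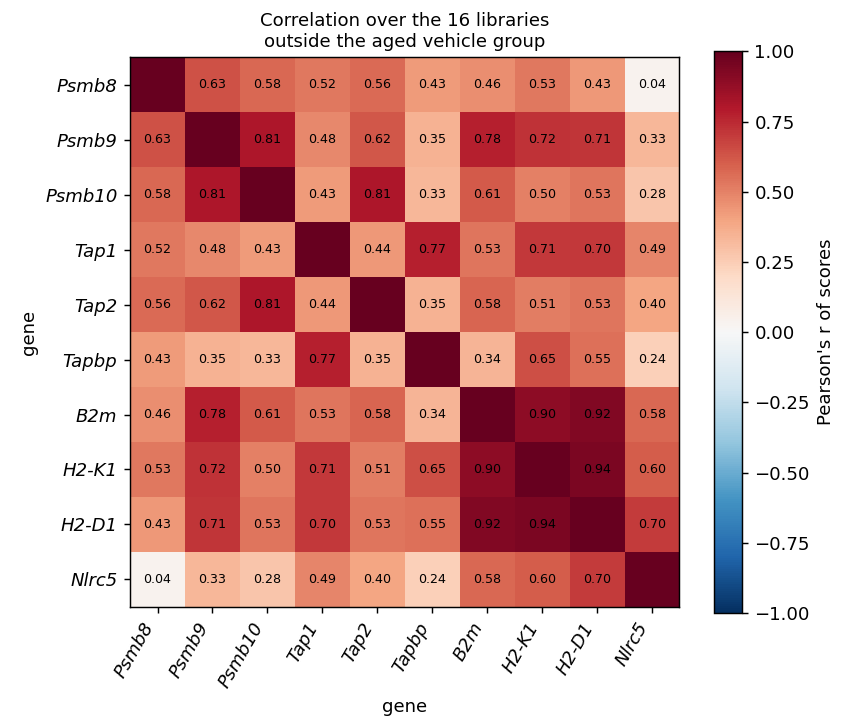
Pearson correlations between the scores of the members over the 16 libraries outside the aged group, as a colour scale from low to high. All 45 pairs lie above 0, from 0.04 for Psmb8 with Nlrc5 to 0.94 for H2-K1 with H2-D1.

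Outside the aged group the scores of the members were compared with each other, as a description over 16 libraries that share 4 groups and 1 scaling. All 45 pairs correlated above 0, with a median r of 0.53. Pairs of other genes were not examined in this way, so there is no background for these values. The class I molecule was the tightest unit: H2-K1 with H2-D1 gave 0.94, B2m with H2-D1 0.92 and B2m with H2-K1 0.90. Of the 50-base words of H2-K1 4.08% occur in H2-D1, and of those of H2-D1 5.44% in H2-K1, so reads may be shared between these 2. Psmb10 gave 0.81 with both Psmb9 and Tap2, and Tapbp with Tap1 0.77. Without the 2 libraries farthest from the median of the members' mean score (adult libraries 3 and 4) the median was 0.54, but the median of Psmb8 with the other 9 was 0.27 in place of 0.52, and Psmb8 with Tap1 fell from 0.52 to 0.04. In the aged group, left out of these values, H2-K1 scored above 0 in all 4 libraries and B2m below 0 in 3 of them.

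The other genes of the pathway did not all move with the members. Against 41.3% of all genes lower and 33% higher, 4 of 5 endoplasmic reticulum helpers were lower in aged than in young ovaries and none higher. These were the chaperones Calr (-2.17, adjusted p = 0.000247) and Canx (-2.36, 1.71e-06), the oxidoreductase Pdia3 (-2.21, 1.64e-05) and the peptide-trimming enzyme Erap1 (-2.35, 2.47e-05). The tapasin homologue Tapbpl gave 0.23 (adjusted p = 0.775). The same 4 were higher with HEP14 than with vehicle in aged mice, against 33.2% of all genes. The differences were 1.90 for Calr, 2.07 for Canx, 2.13 for Pdia3 and 1.42 for Erap1. The direction of these 4 was thus that of Tapbp, whose own differences did not pass, and opposite to that of Tap1 and Tap2.

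Among 6 other proteasome genes measured, 2 were higher and 2 lower in aged than in young ovaries. The shares of all genes were 33% higher and 41.3% lower, so these counts did not stand out. The interferon-inducible cap subunits Psme1 (2.35, adjusted p = 5.41e-05) and Psme2 (2.01, 0.00122) were higher, like Psmb8, Psmb9 and Psmb10. Psmb7, the standard subunit whose place Psmb10 takes, was lower (-2.32, adjusted p = 8.48e-07), and so was the nuclear cap subunit Psme3 (-2.65, 2.64e-07). Psmb5, the standard counterpart of Psmb8, gave -0.62 (adjusted p = 0.4). With HEP14 in aged mice Psme1 (-1.69, adjusted p = 0.00168), Psme2 (-1.55, 0.0104) and Psme4 (-1.54, 0.0243) were lower, and Psmb7 (2.25, 3.32e-06) and Psme3 (1.68, 5.39e-05) were higher. The shares of all genes there were 29.3% lower and 33.2% higher.

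Of 14 other class I and class I-like heavy chains, 9 were higher and 3 lower in aged than in young ovaries. The shares of all genes were 33% higher and 41.3% lower. H2-K2 (2.67), H2-Q4 (2.61), H2-Q6 (2.61), H2-T10 (2.56) and H2-Q7 (2.55) had the largest differences, with adjusted p between 1.66e-07 and 8.31e-06 for these genes. The 3 lower ones present or carry other cargo: Mr1 (-2.05, adjusted p = 0.00165) shows vitamin metabolites, Cd1d1 (-1.79, 0.00958) lipids, and Fcgrt (-1.76, 0.0102) binds IgG. With HEP14 in aged mice 29.3% of all genes were lower and 33.2% higher. Among the 14 heavy chains 6 were lower, H2-T10 (-2.05), H2-Q6 (-1.99), H2-Q4 (-1.94), H2-K2 (-1.86), H2-Q7 (-1.82) and H2-Q10 (-1.61), and Mr1 was higher (1.33, adjusted p = 0.0328). These genes resemble each other and H2-K1 in sequence, so reads may be shared among them.

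Of 19 genes of the interferon gamma path and of the factors that bind class I promoters, 10 were higher and 5 lower in aged than in young ovaries. The shares of all genes were 33% higher and 41.3% lower. Irf1, an interferon-induced activator, was higher (2.52, adjusted p = 5.14e-06), and so were Rfx5 (1.94, 0.00177), Rfxank (2.43, 1.49e-06) and Nfyc (2.57, 3.85e-07), subunits of the RFX and NF-Y factors. Not all subunits rose alike. The RFX subunit Rfxap had a mean score of 0.06 in aged against 0.80 in young ovaries, and the NF-Y subunit Nfya 1.12 against 0.83. Ciita, the class II counterpart of Nlrc5, differed by 2.09 (adjusted p = 0.00129), and Ifng itself by 1.40 (0.0479), where 1 aged library scored 4.15 and the median of the 4 was 0.14. The lower genes were the receptor chain Ifngr2 (-2.63), the kinases Jak1 (-2.27) and Jak2 (-1.56), and Creb1 (-2.07) and Atf1 (-2.41). With HEP14 in aged mice 8 of the 19 were lower, among them Irf8 (-2.32), Nfyc (-2.19), Rfxank (-1.88), Irf1 (-1.72) and Ciita (-1.63), and 4 were higher, Jak1 (1.96), Creb1 (1.96), Atf1 (1.79) and Ifngr2 (1.66). The shares of all genes there were 29.3% lower and 33.2% higher.

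Of 13 interferon gamma induced genes outside the class I pathway, 9 were higher and 2 lower in aged than in young ovaries. The shares of all genes were 33% higher and 41.3% lower. Gbp4 (2.48), Cd274 (2.31), Igtp (2.26) and Gbp6 (2.23) were among the higher, and the lower ones were Irgm2 (-1.73) and Gbp2 (-1.19). With HEP14 in aged mice 9 of the 13 were lower and Gbp2 was higher (1.33, adjusted p = 0.0216), against 29.3% lower and 33.2% higher of all genes. The list's mean score ran from -0.174 to 2.28 in the aged libraries, from -0.574 to -0.30 in young and from -0.87 to 0.088 in HEP14-treated aged ones. In adult against young ovaries 9.92% of all genes passed, but none in the lists of helpers, proteasome genes, other heavy chains or interferon gamma induced genes. With HEP14 in adults, where 1 of all genes passed, none did in any of these or the regulator list.

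**Figure D4:**
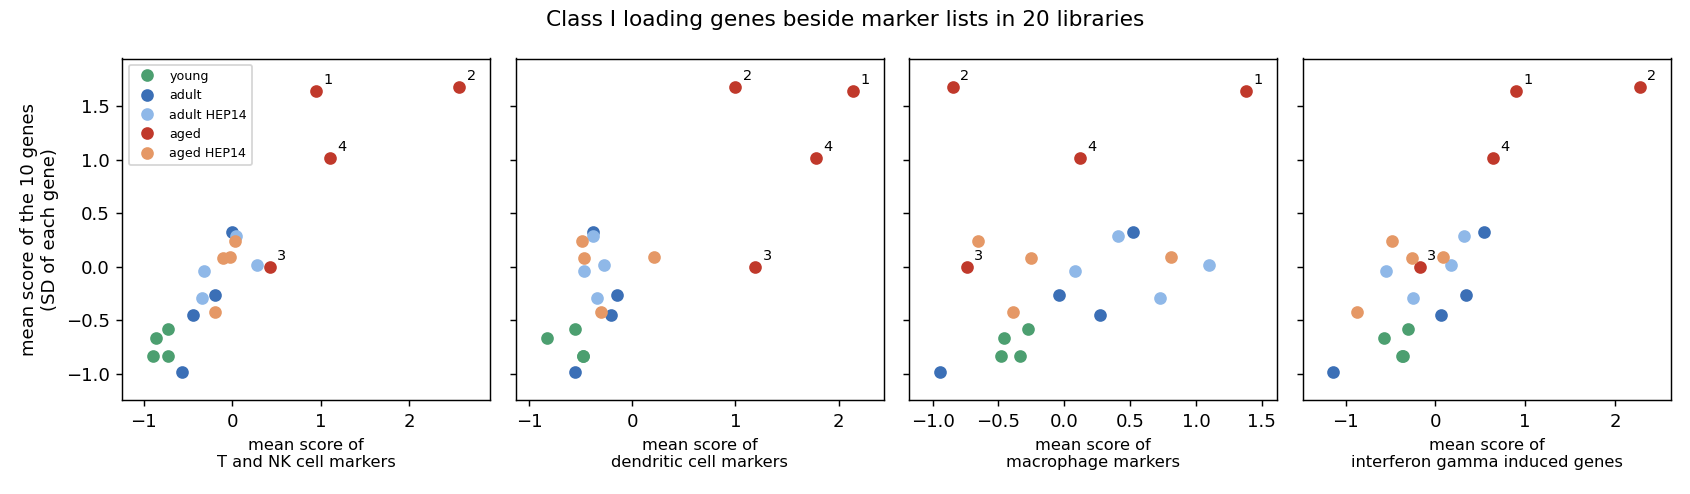
Mean score of the 10 members (y axis) against the mean score of 4 marker or target lists (x axes), both in SD of each gene, with 1 point per library coloured by group and the aged libraries numbered. Aged libraries 1, 2 and 4 lie above all others on the y axis, aged library 3 does not, and the 4 aged libraries lie to the right of the rest for T and NK cell and for dendritic cell markers.

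Markers of T and NK cells and of dendritic cells moved with the members, those of B cells and macrophages less evenly. The shares of all genes were 33% higher and 41.3% lower in aged against young ovaries. With HEP14 in aged mice they were 29.3% lower and 33.2% higher. T and NK cell markers were higher in aged than in young ovaries for 15 of 17 genes and lower for none, led by Trbc2 (2.84) and Cd3g (2.65). The mean score of these markers was 0.948, 2.57, 0.426 and 1.10 in aged libraries 1 to 4, between -0.892 and -0.727 in young and between -0.199 and 0.032 in HEP14-treated aged libraries. With HEP14 13 of the 17 were lower and 1 higher, with Cd2 (-2.16) and Cd5 (-2.13) the largest differences. Dendritic cell markers were higher in aged than in young ovaries for 6 of 6 genes, such as Itgax (2.61) and Batf3 (2.28), with mean scores of 1.0 to 2.14 in the aged and -0.829 to 0.216 in all other libraries. With HEP14 4 of those 6 were lower. B and plasma cell markers were higher for 8 of 10 and lower for 1, with mean scores of -0.087 to 2.79 in the aged and -0.525 to -0.421 in the young libraries. Pan-leukocyte genes were higher for 7 of 10, with mean scores of -0.546 to 1.26 in the aged libraries.

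Macrophage markers were more divided, with 4 of 9 higher and 2 lower in aged than in young ovaries. Their median difference was 0.045, and -0.128 for HEP14 against vehicle in aged mice. Their mean scores ran from -0.845 to 1.38 in the aged libraries against -0.477 to -0.277 in the young. The members' mean score in the same aged libraries was 1.64, 1.68, -0.003 and 1.01, so library 3 was lowest for the members, as it was for T and NK cell markers and for interferon gamma induced genes. Library 2, the highest for the members, was the highest of the aged for T and NK cell markers (2.57) but the lowest for dendritic cell (1.0), B and plasma cell (-0.087) and macrophage markers (-0.845). In bulk ovaries more cells of a type and more RNA per cell cannot be told apart. The part of leukocytes in the scores of the members was not tested, and since each gene was scaled to its own mean, no marker can be read as absent from any library. Stromal markers were lower for 8 of 8 in aged than in young ovaries, against 41.3% of all genes. Granulosa markers were lower for 3 of 7, near that share. Theca and luteal markers were higher for 5 of 7, against 33% of all genes, and lower for 0. Of 8 endothelial markers 1 was higher and 3 were lower.

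Outside the lists, the genes whose scores were most like the mean of the 10 members over the 20 libraries were Itgal (r = 0.955), Gimap6 (0.946), Sp100 (0.944), Zap70 (0.930), Fxyd5 (0.929), Lat (0.928), Rac2 (0.927), Nprl3 (0.926), Ncf4 (0.925) and Fmnl1 (0.925), among 13110 genes ranked. Over the 16 libraries outside the aged group the same 10 genes gave values from 0.705 for Nprl3 to 0.882 for Lat. In those 16 libraries the closest were Hexa (0.907), Ly6c2 (0.900) and Cd6 (0.888), and Lat (0.882) and Rac2 (0.877) were among the 10 closest both times. Hexa was not alike over all 20 libraries (-0.346).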

How the data were processed

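Total RNA of whole mouse ovaries was sequenced, and the processing notes of the submitters name DESeq2 1.20.0 beside HISAT2 2.0.5 and featureCounts 1.5.0-p3, without their roles. Genome build, annotation and strand setting were not given in the sources used here. The authors deposited 1 table of gene-wise scores for 17651 genes in 20 libraries, each gene with mean 0 and SD 1, so the depth is unknown and no count test could be run. Of the gene IDs 17630 matched a symbol (GENCODE M21).

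The scores were tested as deposited with limma 3.58.1 (R 4.3.3) over all 20 libraries, with 1 coefficient per group, and Benjamini-Hochberg adjustment over all genes in each of 7 comparisons. A gene was called at an adjusted p below 0.05. The procedure was tested on simulated data that kept the real group means, after an earlier simulation with independent noise and few changed genes had recovered none of them. In the former, some genes made equal were called, and small differences were recovered less often than large ones. All members were described. From the lists, any called gene could be named, and from marker lists those with the largest differences. The genes most alike were ranked by Pearson's r. The members and lists were chosen with earlier results of these data known, and leaving out aged libraries 1 and 2 together was added after seeing the data. Other alternatives were a fit of the compared groups only, 1 precision weight per group, robust moderation, equal library medians, no genes with a tied lowest value, the replicate block and each library left out in turn.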

Additional observations from a re-analysis of the deposited data

Results flagged for a closer look

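The difference between the HEP14 effects in aged and in adult mice passed the test for 7 members (limma, adjusted over all genes). The differences were -2.69 for Psmb8, -2.42 for Tap2, -2.22 for Psmb9, -2.09 for Tap1, -1.91 for Psmb10, -1.91 for Nlrc5 and -1.88 for H2-K1. The test called 47.3% of all genes, and it shares the aged vehicle libraries with the HEP14 comparison in aged mice.

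In adult ovaries Tapbp scored -1.02 in library 3, far from the other adult libraries, the nearest of which scored 0.64. It was the only such library among 50 combinations of a member and a group examined, and chance alone marks about 1 in 20.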

How the results depend on the processing

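No member's call reversed under any alternative. Of the members' results, 1057 kept their call, 21 lost it and 22 gained one. Some calls changed with all 20 libraries and all genes kept, as with 1 precision weight per group. The cause of these changes was not tested. Robust moderation, equal library medians and the replicate block changed no member's call. Same-numbered libraries did not pair, with correlations of their deviations from -0.422 to 0.155 and at most 3 of 4 libraries closest to their own number in any pair of groups. With the replicate block 0 instead of 1 gene was called for HEP14 in adults, as without genes with a tied lowest value (0) and in the fit of the compared groups only (0).

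In adult against young, 1751 genes were called, but 3789 in the fit of the compared groups only, 5174 with 1 precision weight per group and 784 without genes with a tied lowest value. In HEP14-treated aged against young the counts were 2798, 5576, 6454 and 1786 in the same order, and 4 instead of 1 member were higher in the fit of the compared groups only and also 4 with group weights. Without genes with a tied lowest value 1 member, Tapbp, was lower in aged than in adult (adjusted p = 0.0475). Without aged libraries 1 and 2 together 1 member (Tapbp) was lower in aged than in young, 1 (Tapbp) lower than in adult, and 2 (B2m and Tapbp) higher with HEP14 in aged mice.

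Leaving out each library in turn gave 0 to 1 members lower in aged than in young, 0 to 2 lower than in adult, 1 to 2 higher with HEP14 in aged mice, 0 to 1 higher in HEP14-treated aged than in young, and 0 to 1 with a higher HEP14 effect in aged than in adult mice. Genes called ranged from 628 to 1475 for adult against young, from 1520 to 3318 for HEP14-treated aged against young and from 0 to 4 for HEP14 in adults. They ranged from 12386 to 13021 for aged against young and from 11007 to 11789 for aged against adult. For HEP14 in aged mice the range was 10259 to 11121, and for the difference between the HEP14 effects 7563 to 8793.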
